A study of Mus musculus with 6 samples.

Results

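The phase II conjugation enzymes of 3 families were followed in mouse kidney RNA. They are the glutathione transferases (gene names that start with Gst and a letter), the UDP-glucuronosyltransferases (Ugt1, Ugt2 and Ugt3) and the cytosolic sulfotransferases (Sult and a number). Members were taken by name from the deposited gene table. The rule found 60 of 23396 genes: 22 glutathione transferases, 20 glucuronosyltransferases and 18 sulfotransferases. The 6 libraries came from frozen right kidneys of male mice aged 6 months. The knockout group was 3 mice homozygous for a disrupted Far2 gene (C57BL/6N-Far2tm2a(KOMP)Wtsi/2J), and the control group was 3 wild-type C57BL/6N mice; no treatment is named. Far2 encodes a fatty acyl-CoA reductase that makes fatty alcohols. The comparison asks how loss of Far2 goes with the level of each conjugation enzyme.

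Conjugation makes fat-soluble compounds easier to excrete by joining them to a polar group. Glutathione transferases join the sulfur of glutathione to reactive electrophiles, and the product is trimmed in the proximal tubule to a mercapturate that leaves in the urine. Glucuronosyltransferases sit in the endoplasmic reticulum and transfer a sugar, usually glucuronic acid from UDP-glucuronic acid, while cytosolic sulfotransferases transfer sulfate from the donor PAPS. The kidney both makes such conjugates and secretes those that reach it in the blood, chiefly in the proximal tubule.

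In each family a few genes held most of the signal, and no member passed the test between genotypes. Ugt3a2 held 48.8% of the summed FPKM of its family, Sult1d1 84.7% and Gstm1 21.6%. Sult1d1, Gstz1, Gstp1 and Ugt3a2 were the members whose 3 knockout libraries all lay above the 3 wild-type libraries, with fitted differences between 0.17 and 0.34 on the log2 scale. These 4 were 10.3% of the members tested, beside 7.12% of all genes tested. In the other direction there were 0 members, beside 6.96% of all genes. Of the 60 members, 39 had enough fragments to be tested, and 0 of the 39 passed a Benjamini-Hochberg adjusted p of 0.05 in edgeR's quasi-likelihood test, as did 0% of the 14354 genes tested. DESeq2, which gave an adjusted p to 11291 of these genes, called 14 of them and 0 of the 30 members among them, with a smallest adjusted p of 0.155 for Sult1d1. At an unadjusted p under 0.05 there were 3 members by edgeR, where 8.31% of all genes fell under it, and 5 by DESeq2, where 5.59% did.

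The libraries held between 15261362 and 20631158 fragments assigned to genes. Far2 itself had from 22 to 40 fragments in a wild-type library and from 19 to 31 in a knockout library, too few and too similar to check the genotype labels. Markers of both parts of the proximal tubule were abundant in every library. The summed level of the 10 S1 and S2 markers ranged from 20380 to 23360 CPM (fragments scaled to the library size, with TMM) and that of the 12 S3 markers from 8312 to 11400 CPM. Wild-type library 0 stood apart in 2 marker lists. The 12 tubular injury markers summed to 1531 CPM there and to between 795 and 917 CPM in the other 5 libraries, and the 11 macrophage and leukocyte markers to 508 CPM against 231 to 314 CPM. In whole kidney a lower value can come from fewer cells of a type or from less RNA per cell, and these cannot be told apart.

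Many members are close copies of one another, which bears on how far their levels can be separated. By GENCODE models on GRCm38, 32 of the 60 members shared an identical run of at least 50 coding bases with another member, and 26 shared at least 100. For 3 close pairs, picked after the values were seen, the 60-base coding window with the most differences is shown 5′ to 3′ on the coding strand, with the differing bases in capitals. Gstp1 and Gstp2, the pi-class genes on chromosome 19, were 98.1% identical over the coding sequence and had 6067 and 368 fragments over the 6 libraries. Coding bases 1 to 60 are shown.
Gstp1: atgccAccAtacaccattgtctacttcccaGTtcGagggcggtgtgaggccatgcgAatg
Gstp2: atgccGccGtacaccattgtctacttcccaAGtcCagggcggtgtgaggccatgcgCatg
The 6 capitals are among the 12 differences of the whole coding sequence, and the longest identical run was 300 bases.

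Gsta1 and Gsta2, alpha-class genes on chromosome 9, were 97.6% identical, with 7 and 11518 fragments. Coding bases 449 to 508 are shown, with differences in capitals.
Gsta1: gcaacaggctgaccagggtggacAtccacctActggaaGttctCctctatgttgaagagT
Gsta2: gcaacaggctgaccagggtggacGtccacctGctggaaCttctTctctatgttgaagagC
Ugt2b38 and Ugt2b5, both on chromosome 5, were 97.0% identical, with 66998 and 303 fragments. Their longest identical run was 443 bases, and coding bases 1467 to 1526 are shown.
Ugt2b38: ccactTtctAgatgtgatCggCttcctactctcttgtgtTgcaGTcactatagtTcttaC
Ugt2b5: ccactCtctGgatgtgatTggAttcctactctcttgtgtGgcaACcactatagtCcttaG
In each pair most fragments were assigned to a single gene, although long stretches of the copies are identical. How fragments with several alignments were treated is not given in the sources used here, so the split within each pair is uncertain.

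The 8 Ugt1a members share a locus. In the deposited table all 8, with the unrelated gene Dnajb3, carry the locus chr1:88055410-88220002 (mm10). Each Ugt1a gene has its own first exon spliced to common later exons, and the last 737 coding bases were identical in all 8. The first 60 bases of that shared end are shown, all in lower case because no base differs between the genes.
Ugt1a shared start: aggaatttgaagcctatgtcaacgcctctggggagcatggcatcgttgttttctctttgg
A fragment from this stretch cannot be placed by sequence, and most deposited counts of these genes are not whole numbers (exact match required): of 6 libraries, 4 values were not whole for Ugt1a7c and 6 for each of the other 7 genes. The coding window that differs most between Ugt1a7c and Ugt1a10, coding bases 610 to 669 of Ugt1a7c and 607 to 666 of Ugt1a10, lies before the shared end. It is given with the 23 differing bases in capitals.
Ugt1a7c: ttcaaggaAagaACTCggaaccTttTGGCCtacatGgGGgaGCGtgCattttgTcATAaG
Ugt1a10: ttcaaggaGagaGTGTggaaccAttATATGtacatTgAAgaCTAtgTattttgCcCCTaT
The Ugt1a values below therefore rest on how the authors' software shared out the common fragments, and the sum over the locus is the safer measure.

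Levels per length ordered the members within each family. Among the glutathione transferases the mean FPKM over the 6 libraries was 250 for Gstm1 (mu class), 166 for Gstz1, 116 for Gsta2, 104 for Gstt2 (theta class), 96.7 for Gstm5, 94.0 for Gstt1 and 85.1 for Gstp1. Gstz1 encodes maleylacetoacetate isomerase, which acts in tyrosine breakdown. Gstm1 lay above Gstz1 in all 6 libraries without overlap. From Gstz1 down to Gstk1 each neighbour in the order overlapped the next in its range over libraries. Compared within each library, Gstz1 lay above Gsta2, Gstt1 above Gstp1 and Gsta3 above Gstk1 in all 6. The other neighbours in this stretch kept their order in 3 to 5 libraries. The lower part of the order held Gsta3 at 72.4 FPKM and Gstk1, found in mitochondria and peroxisomes, at 52.8 FPKM. Between 32.9 and 18.8 FPKM lay Gstm2, Gstt3, Gsto1 (an omega-class thiol transferase and dehydroascorbate reductase) and Gsta4 (which conjugates the lipid peroxidation product 4-hydroxynonenal). Gstm4, Gstp2, Gstm7 and Gstcd were between 5.38 and 2.76 FPKM and Gstm6 and Gsto2 at or under 0.90 FPKM. Gstcd, included by its name, has 1902 coding bases and was only 25.6% to 29.3% identical to the other members (gaps counted). Gsta1, Gstm3 and Gstt4 had 9 fragments or fewer over all libraries and were not tested.

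The glucuronosyltransferases spread over a wider range. Ugt3a2 stood at 837 FPKM, above Ugt2b38 at 372 FPKM in all 6 libraries without overlap. Ugt1a7c followed at 247 FPKM, with a range that overlapped that of Ugt2b38, then Ugt3a1 at 137 and Ugt2b37 at 88.3 FPKM, which overlapped each other. The human members of the Ugt3 group use other sugars than glucuronic acid. These 5 genes held 98.1% of the summed FPKM of the family. Ugt2b34, at 10.1 FPKM, and Ugt1a6b, at 9.13 FPKM, overlapped each other and lay above Ugt1a6a at 4.98 FPKM, which acts on small phenols. Ugt2b5, Ugt1a2, Ugt1a5, Ugt2a3, Ugt1a1 (the bilirubin enzyme) and Ugt1a10 lay under 2 FPKM and overlapped their neighbours. The other 6, namely Ugt1a9, Ugt2a1, Ugt2a2, Ugt2b1, Ugt2b35 and Ugt2b36, had too few fragments to be tested.

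The sulfotransferases were dominated by Sult1d1, which sulfates phenols and catecholamines in mice, at 383 FPKM. Sult1c2 stood at 56.3 FPKM, Sult1a1, the phenol enzyme, at 9.14 FPKM and Sult1b1, which acts on thyroid hormones, at 2.07 FPKM. Each of the 4 lay above the next in all 6 libraries without overlap. Sult5a1 and Sult2b1, the cholesterol sulfotransferase, stood at 0.60 and 0.50 FPKM and overlapped each other. Sult2a3, Sult4a1 and Sult6b1 had from 1 to 15 fragments a library and were not tested. The other 9, which include the oestrogen enzyme Sult1e1 and 6 of the 7 hydroxysteroid enzymes of the Sult2a group, had 0 fragments in all 6 libraries. A count of 0 allows up to 3 fragments, or from 0.142 to 0.199 CPM depending on the library, so these genes were not detectable at this depth.

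**Figure D1:**
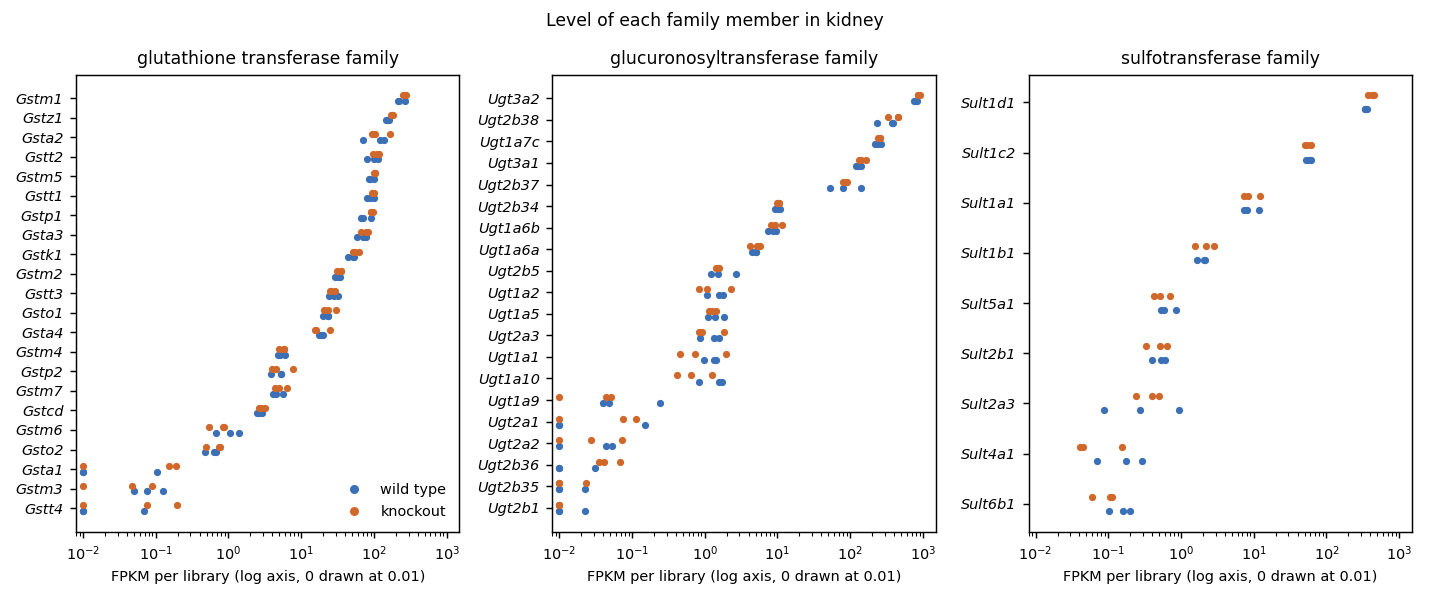
Level of each member in each library in FPKM (fragments scaled to gene length and library size, log axis, values of 0 drawn at 0.01), in order of the mean, for wild type (blue) and knockout (orange); the 9 sulfotransferases at 0 in every library are left out. Ugt3a2, Gstm1 and Sult1d1 head their families, and the points of the genotypes lie close together for most abundant members.

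Among the glutathione transferases 16 of 19 tested members had a higher fitted mean in knockout, with a median log2 fold change of 0.10 that was 0.032 without knockout library 0 and 0.050 without wild-type library 2. Gstz1 was at 279.6, 270.8 and 279.4 CPM in wild type and at 329.2, 313.6 and 307.1 CPM in knockout. The lowest knockout library lay above the highest wild-type library, and the log2 fold change was 0.20 ± 0.063 (SE), with a 95% confidence interval of 0.053 to 0.34, and the adjusted p by edgeR's quasi-likelihood test was 0.599. Gstz1 (chromosome 12, plus strand, 87147165 to 87164723) overlaps Pomt2 on the opposite strand, and the deposited table gives both the same locus. The kit marks strand, but the strand setting of the counting is not given in the sources used here, so reads of the 2 genes may not be fully separate.

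Gstp1, the pi-class enzyme, was at 58.3, 50.7 and 46.7 CPM in wild type and at 58.9, 62.4 and 61.0 CPM in knockout. The groups did not overlap, though wild-type library 0 and knockout library 0 differed by less than 1 CPM. The log2 fold change was 0.23 ± 0.087 (SE) with an interval of 0.030 to 0.42 (edgeR adjusted p = 0.599). With each library left out in turn it ranged from 0.16 with wild-type library 2 dropped to 0.32 with wild-type library 0 dropped. In the authors' deposited table Gstp1 had the smallest q of any member, 0.347. The mean of its close copy Gstp2 was 3.30 ± 0.52 CPM (SD, n = 3) over the wild-type mice and 3.47 ± 1.30 CPM over the knockouts.

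Gstm1, the most abundant member of the family, was at 378.7, 323.9 and 338.2 CPM in wild type and at 385.8, 370.8 and 363.8 CPM in knockout. Its ranges overlapped because wild-type library 0 lay above the 2 lower knockout libraries, and the log2 fold change was 0.11 ± 0.076 (SE). Gstm5, another mu-class gene, was at 88.3, 81.5 and 79.9 CPM in wild type and at 86.1, 90.4 and 91.5 CPM in knockout. The same wild-type library reached into the knockout range, and the log2 fold change was 0.10 ± 0.066. Gstm5 shares its deposited locus with Eps8l3 and 4933431E20Rik. Gstm6 was at 1.64, 1.28 and 0.844 CPM in wild type and at 1.03, 0.997 and 0.647 CPM in knockout, with a log2 fold change of −0.52 ± 0.33. It rests on 118 fragments in all, and the groups overlapped.

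Gsta2 varied more between mice of a group than between groups. It was at 107.2, 127.1 and 67.2 CPM in wild type and at 151.6, 91.3 and 86.6 CPM in knockout. The highest library of Gsta2 was 2.26 times the lowest, and its log2 fold change of 0.12 ± 0.25 (SE) became −0.18 without knockout library 0. Gstt2, of the theta class, was at 131.3, 162.1 and 115.8 CPM in wild type and at 151.8, 147.8 and 131.3 CPM in knockout, with overlap and a log2 fold change of 0.073 ± 0.11. Of the other 12 tested members, 10 had a higher fitted mean in knockout, from 0.0048 for Gstm4 to 0.13 for Gsta3, and Gsta4 (−0.034) and Gstt3 (−0.10) a lower one. All 12 overlapped between groups. By GENCODE models Gsto1 and Gsto2 lie opposite Cfap43, Gstcd opposite Ints12 and Gsta3 opposite Gm28836. Unlike Gstz1, these genes share no deposited locus with another gene, so the doubt about their counts rests on the GENCODE models only.

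Among the glucuronosyltransferases 7 of 14 tested members had a higher and 7 a lower fitted mean in knockout, with a median log2 fold change of 0.017. Ugt3a2 was at 1544, 1386 and 1586 CPM in wild type and at 1652, 1766 and 1654 CPM in knockout. The groups did not overlap. The log2 fold change was 0.17 ± 0.084 (SE), with an interval of −0.019 to 0.35 (edgeR adjusted p = 0.603). Its neighbour Ugt3a1, 93.2% identical in coding sequence, was at 234.2, 249.8 and 293.7 CPM in wild type and at 333.7, 287.3 and 264.0 CPM in knockout. Here the groups overlapped, and the log2 fold change was 0.19 ± 0.11.

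Ugt2b38 had the widest spread of the 4 members above 500 CPM, its highest library being 2.12 times the lowest. It was at 617.8, 374.4 and 680.3 CPM in wild type and at 570.1, 792.8 and 767.0 CPM in knockout. Wild-type library 1 was low, and knockout library 0 lay inside the wild-type range. The log2 fold change was 0.35 ± 0.20 (SE), with an interval of −0.10 to 0.80, and ranged from 0.13 to 0.52 when each library was left out in turn. Ugt2b37, 94.1% identical to Ugt2b38 and chosen after its values were seen, was at 222.7, 83.1 and 132.8 CPM in wild type and at 134.9, 154.3 and 142.5 CPM in knockout. The wild-type mice spanned the whole knockout range on both sides, and the log2 fold change was −0.023 ± 0.27. Wild-type library 1 was the lowest library for Ugt3a2, Ugt2b38 and Ugt2b37, and also for the summed S3 markers (8312 CPM) and androgen-responsive kidney genes (15560 CPM against 18970 to 24850 CPM). Slc7a12 and Cyp7b1 are in both of these lists. The same library was the lowest for 7 of the 14 tested glucuronosyltransferases and for 23.0% of all genes tested. Ugt2b37 was highest in wild-type library 0, the library with the high injury and macrophage markers. The part of these markers in the levels of the Ugt genes was not tested.

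In the Ugt1a locus Ugt1a7c took from 92.5% to 94.5% of the fragments in every library. It was at 769.3, 715.7 and 679.7 CPM in wild type and at 781.8, 792.4 and 738.8 CPM in knockout, with overlap and a log2 fold change of 0.096 ± 0.076 (SE). The 8 genes summed gave 819, 767 and 734 CPM in wild type and 846, 841 and 782 CPM in knockout. For this sum the log2 fold change was 0.090 ± 0.076, with an interval of −0.081 to 0.26. Ugt1a10 was at 5.01, 4.6 and 2.6 CPM in wild type and at 3.76, 1.93 and 1.24 CPM in knockout. Its log2 fold change of −0.83 ± 0.37 had the smallest p of the family (unadjusted p = 0.0505, adjusted p = 0.599 by edgeR), and the groups overlapped. It was −0.52 without knockout library 2 and −1.39 without knockout library 0, and the unadjusted p was under 0.05 by DESeq2, limma-voom and limma on FPKM, and by edgeR with upper-quartile scaling or with no filter. It made up 0.521% of the fragments of the locus in wild type and 0.279% in knockout. The part of the sharing of common fragments in this value was not tested. Ugt1a1 and Ugt1a2 were also lower in the fitted mean, at −0.22 ± 0.43 and −0.034 ± 0.34, and Ugt1a5 at −0.14 ± 0.22. Ugt1a6a and Ugt1a6b, 98.4% identical, stood at 0.056 ± 0.13 and 0.18 ± 0.15. The remaining members of the family were Ugt2b34 at 0.080 ± 0.084, Ugt2a3 at −0.029 ± 0.34 and Ugt2b5 at −0.20 ± 0.28.

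Of the 6 tested sulfotransferases 3 had a higher and 3 a lower fitted mean in knockout, with a median log2 fold change of −0.011. Sult1d1 was at 618.5, 545.6 and 594.9 CPM in wild type and at 814.4, 767.8 and 648.2 CPM in knockout. The groups did not overlap, and knockout library 2 lay close to the highest wild-type library. The log2 fold change was 0.34 ± 0.097 (SE), a 1.27-fold level with a 95% confidence interval of 1.09 to 1.47. Its unadjusted p of 0.00565 was the smallest of all members, and the edgeR adjusted p was 0.599. Without each library in turn the log2 fold change ranged from 0.27 to 0.43. Sult1d1 (chromosome 5, minus strand, 87554645 to 87569027, 8 exons) overlaps no other annotated gene, and it shared no deposited locus.

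Sult1c2 was at 93.1, 98.6 and 90.0 CPM in wild type and at 102.3, 88.5 and 82.8 CPM in knockout, with a log2 fold change of −0.042 ± 0.085 (SE). The groups overlapped, as they did for the 4 less abundant tested genes. Sult1a1 was at 10.3, 17.2 and 12.2 CPM in wild type and at 17.5, 10.7 and 12.1 CPM in knockout, with a log2 fold change of 0.020 ± 0.22. In each group 1 library was high, wild-type library 1 and knockout library 0. By GENCODE models Sult1a1 lies opposite Sgf29, Sult2b1 opposite Lmtk3 and Gm31597, and Sult5a1 opposite Gm20388, though none shares a deposited locus. Sult1b1 was at 4.37, 3.42 and 4.74 CPM in wild type and at 3.42, 6.31 and 4.80 CPM in knockout, with a log2 fold change of 0.21 ± 0.23. Sult5a1 was at 0.595, 1.04 and 0.714 CPM in wild type and at 0.569, 0.798 and 0.485 CPM in knockout, from 9 to 22 fragments a library, with a log2 fold change of −0.37 ± 0.37 that ranged from −0.58 with knockout library 1 dropped to −0.087 with wild-type library 1 dropped. Sult2b1 stood at −0.071 ± 0.39, from 5 to 12 fragments a library.

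**Figure D2:**
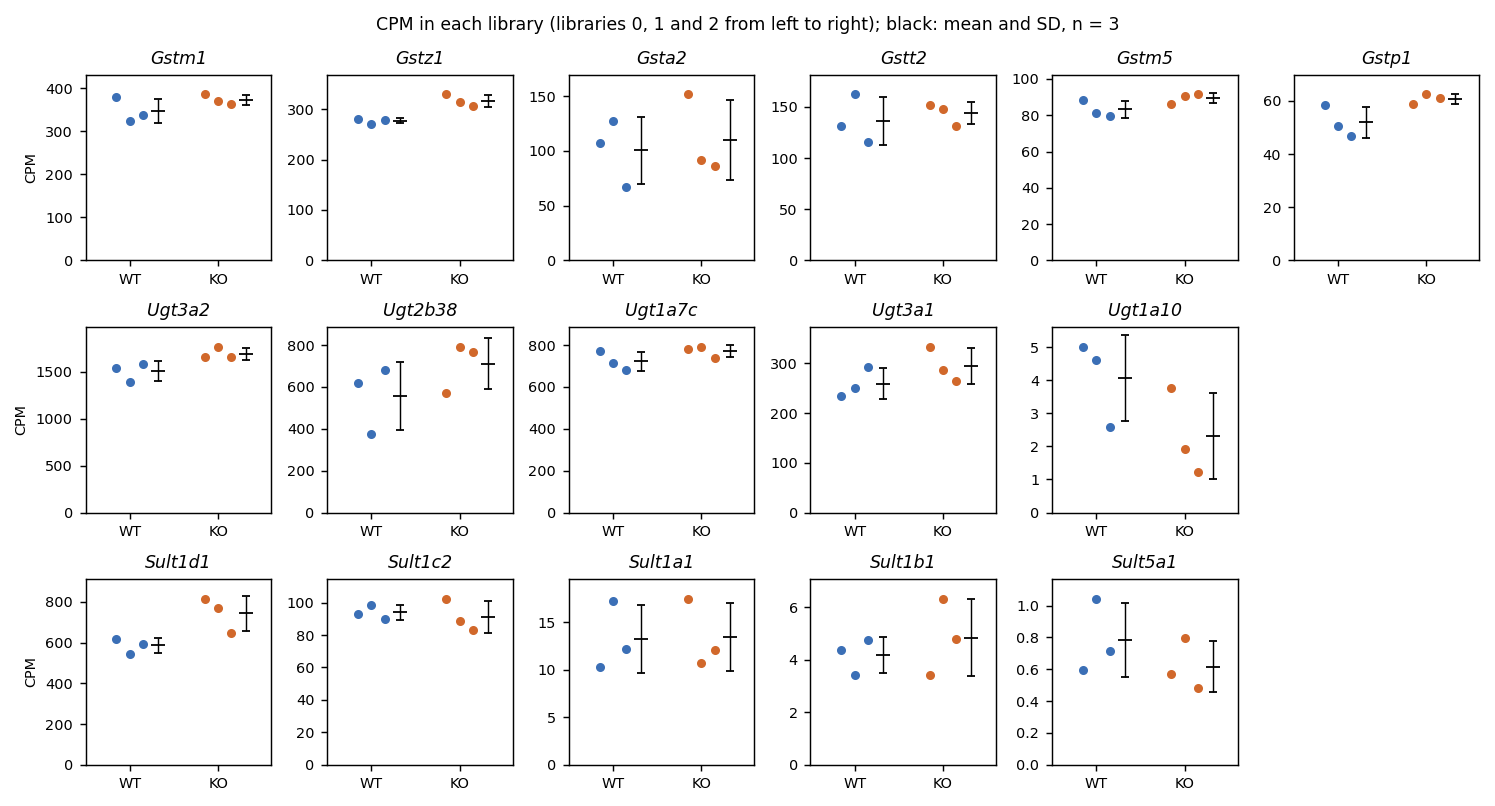
CPM of 16 of the 17 members named by rule in each library (wild type blue, knockout orange, libraries 0, 1 and 2 from left to right; black, mean and SD of 3 libraries; every axis starts at 0). Gstz1, Gstp1, Ugt3a2 and Sult1d1 show no overlap between genotypes, and Gsta2, Ugt2b38 and Sult1a1 show the widest spread within groups among the plotted members above 10 CPM.

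**Figure D3:**
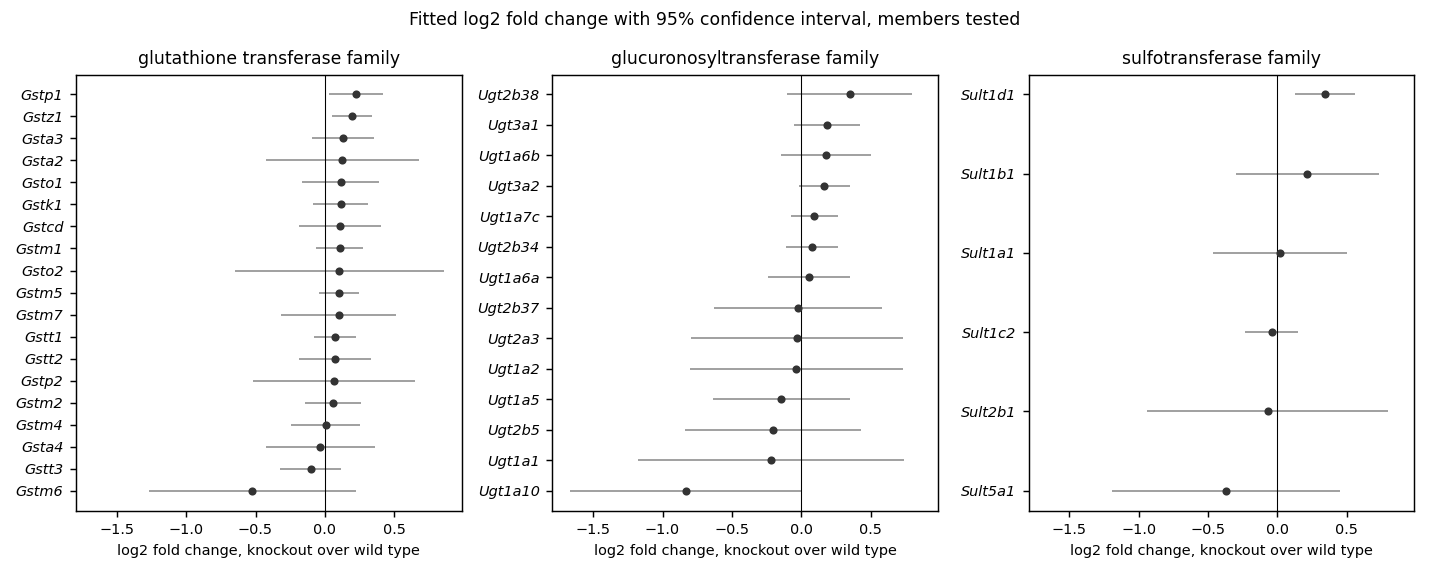
Fitted log2 fold change (knockout over wild type) with its 95% confidence interval for the 39 tested members, by family and in order of the value. The intervals of Sult1d1, Gstz1 and Gstp1 lie above 0, all others include 0, and no member passed after adjustment over all genes.

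Set against all genes, the counts of members were as follows. At an unadjusted p under 0.05 by edgeR there were 3 of the 39 members, or 7.69%, beside 8.31% of all genes tested; all 3 (Sult1d1, Gstz1 and Gstp1) were higher in knockout. A share near that of all genes, as in this edgeR fit, is no result about the families. The shares depended on the method. DESeq2 gave 12.8% of members beside 5.59% of all genes, and limma-voom 12.8% beside 8.07%. With robust dispersion edgeR gave 7.69% beside 8.21%. Leaving out 1 library gave 2 to 8 members, among them 5 where wild-type library 0 was dropped (11.2% of all genes), 5 where wild-type library 2 was dropped (7.54%) and 8 where knockout library 0 was dropped (8.75%). The 8 without knockout library 0 were Gsta4, Gstp1, Gstz1, Ugt1a1, Ugt1a2, Ugt1a10, Ugt2b38 and Sult1d1.

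No overlap between groups was seen for 4 members higher in knockout, 10.3% beside 7.12% of all genes, and 0 members lower, beside 6.96%. Without knockout library 0 the count was 13, 8 of them higher and 5 lower, with 28.0% of all genes; with only 2 libraries in a group, groups separate more often. Dropping wild-type library 0 gave 9 (29.6% of all genes), dropping wild-type library 2 gave 8 (24.0%), dropping knockout library 1 gave 7 (19.4%) and dropping either of the remaining libraries gave 6 (23.1% and 25.5%). A fitted log2 fold change above 0 was found for 26 of 39 members, 66.7%, beside 48.3% of all genes. The median over the 39 members was 0.074 and that over all genes −0.0066. Members of one family share sequence and cell types, so these counts are descriptions and not independent results.

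The families as wholes took 0.540 ± 0.036% (SD, n = 3) of all fragments in wild type and 0.601 ± 0.019% in knockout. Glutathione transferases took 0.148%, 0.146% and 0.125% in wild type and 0.161%, 0.145% and 0.142% in knockout. Glucuronosyltransferases took 0.356%, 0.295% and 0.337% in wild type and 0.356%, 0.382% and 0.363% in knockout, and the genotypes did not overlap but nearly touched. Sulfotransferases took 0.0747%, 0.0682% and 0.0685% in wild type and 0.0937%, 0.0863% and 0.0746% in knockout. Sult1d1 and Ugt3a2 carry much of the last 2 families. In these shares the genotypes overlapped for glutathione transferases and sulfotransferases, while the summed CPM of the sulfotransferases, at most 729 in wild type and at least 749.5 in knockout, did not overlap.

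Knockout library 0 was the highest of the 6 libraries for 19 of the 39 members (48.7%) and the lowest for 0, while it was the highest for 13.97% and the lowest for 13.3% of all genes tested. Of the 19, 11 were glutathione transferases, 5 glucuronosyltransferases and 3 sulfotransferases. Knockout library 0 and wild-type library 1 together were the 2 highest libraries for 12 members, 30.8%, beside 9.18% of all genes. The 12 were Gsta2, Gsta4, Gstk1, Gstm7, Gsto1, Gstp2, Gstt2, Gstt3, Ugt1a1, Ugt1a2, Sult1a1 and Sult1c2. This pattern, which crosses the genotypes, was picked after the values were seen. The 10 S1 and S2 markers summed to 20380, 21890 and 23130 CPM in wild-type libraries 0, 1 and 2. In knockout libraries 0, 1 and 2 they summed to 23360, 22170 and 22280 CPM. The sum was thus highest in knockout library 0, but in wild-type library 1 it lay below every knockout library. The macrophage markers were lowest in knockout library 0, at 231 CPM, and stood at 299.5 CPM in wild-type library 1. The part of either list in the pattern was not tested.

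**Figure D4:**
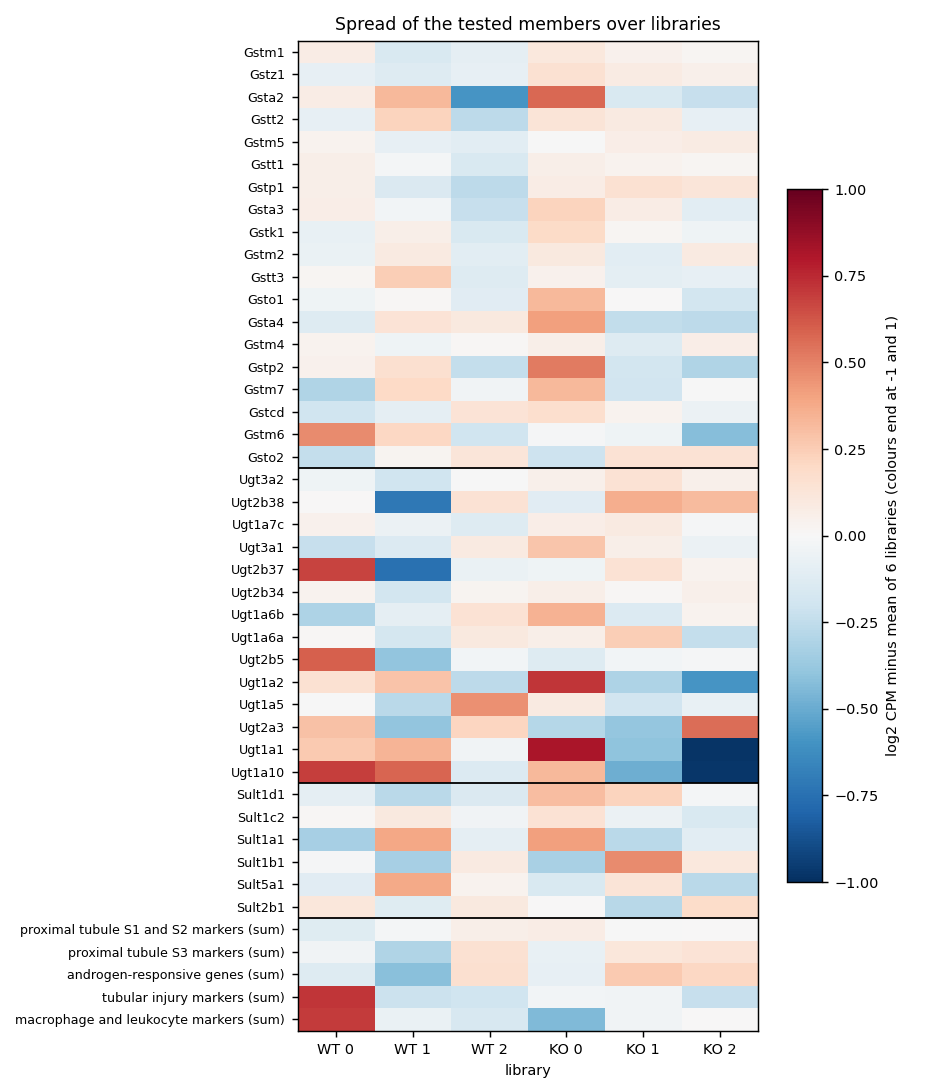
Deviation of each tested member from its mean over the 6 libraries (log2 CPM, with 0.5 CPM added before the log for members, rows in order of level within families, colours end at −1 and 1), with the summed markers of 5 lists in the lowest rows. Knockout library 0 is above the mean for most glutathione transferases, Ugt2b37 and Ugt2b38 are low in wild-type library 1, and the injury and macrophage markers are high in wild-type library 0.

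The genes that supply and follow the conjugation steps were given by lists, and 0 of their members passed edgeR's quasi-likelihood test after adjustment over all genes. At an unadjusted p under 0.05 by edgeR, where 8.31% of all genes fell, the lists held from 0 to 2 members each. The MAPEG list held 2 of 5, UDP-glucuronic acid supply 2 of 7, NRF2 targets 2 of 13 and glutathione synthesis 2 of 14. The mercapturate pathway held 0 of 12 and other conjugation enzymes 0 of 15. For the counts that follow, a higher fitted mean was found for 48.3% of all genes. No overlap was seen for 7.12% of all genes higher and 6.96% lower in knockout. Lower without overlap were 1 of 5 genes of the MAPEG list, 1 of 12 of the mercapturate pathway and 1 of 15 transcription factors. Higher without overlap were 3 of 14 genes of glutathione synthesis. The MAPEG, PAPS supply, transporter, other conjugation and NRF2 target lists each held 1 such higher gene. Of 14 tested genes of glutathione synthesis and recycling, 12 had a higher fitted mean in knockout, with a median of 0.11. The mean of Cth, which makes the cysteine of glutathione, was 160.6 ± 4.10 CPM (SD, n = 3) over wild-type mice and 192.6 ± 17.1 CPM over knockouts (log2 fold change 0.26 ± 0.075 SE), and the groups did not overlap. Chac2, which cleaves glutathione, stood at 0.28 ± 0.12 with overlap. Of the 12 tested genes of the mercapturate pathway, 10 were higher in the fitted mean, with a median of 0.067. Ggt7 was at −0.70 ± 0.32, from a mean of 1.05 CPM in wild type, and Ccbl2, a cysteine conjugate lyase, at 0.24 ± 0.15. Of the 5 tested genes of the MAPEG list, the microsomal glutathione transferases and their relatives, Mgst1 and Mgst3 were higher in the fitted mean and Ptges (prostaglandin E synthase), Ltc4s and Alox5ap (the 5-lipoxygenase activating protein) lower, with a median of −0.18, the value of Ptges. Mgst3 stood at 0.26 ± 0.085 without overlap (55.4 ± 2.32 CPM in wild type, 66.4 ± 6.98 in knockout). Ltc4s, which makes leukotriene C4 in leukocytes, stood at −0.85 ± 0.35 from a mean of 1.24 CPM in wild type, and the part of the macrophage markers in it was not tested.

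For glucuronidation, 5 of the 7 genes listed under UDP-glucuronic acid supply and glucuronide hydrolysis were higher in the fitted mean. The list held Ugp2, Ugdh, Slc35d1, Slc35b1, Slc35a3, Gusb and Ugt8a, and its median was 0.087. Slc35a3 and Slc35b1, the genes of smallest p in this list, stood at 0.25 ± 0.096 and 0.30 ± 0.12 (log2 fold change, SE), both with overlap. Being in the list does not show a part in the supply of UDP-glucuronic acid, which was not tested for any of these genes. For sulfation, 12 of 15 genes of PAPS supply and sulfate release were higher, with a median of 0.066. Bpnt1, which breaks down the PAP left after sulfate transfer, stood at 0.18 ± 0.069 without overlap (281.2 ± 5.61 CPM in wild type, 317.7 ± 19.2 in knockout), and Sumf1, which activates sulfatases, stood at 0.16 ± 0.076. Of 15 other conjugation enzymes 11 were higher, with a median of 0.096. They include the glycine conjugation genes Acsm1 at 0.17 ± 0.087 and Glyat at 0.13 ± 0.077, the latter without overlap.

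Of the 15 transporters that carry conjugates, 6 were higher in the fitted mean, beside 48.3% of all genes, with a median of −0.093. Abcc4 and Abcc3, both efflux pumps, stood at −0.38 ± 0.17 and −0.42 ± 0.22 (log2 fold change, SE), with overlap between groups. Of 15 transcription factors of xenobiotic response and tubule identity, 5 were higher, with a median of −0.054. Of 13 tested NRF2 targets outside the families, 8 were higher, with a median of 0.081. Taldo1, of the pentose phosphate pathway, stood at 0.17 ± 0.063 without overlap (188.9 ± 2.82 CPM in wild type, 211.9 ± 9.53 in knockout), and Abcc4 is also a member of this list.

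The core of the antioxidant response element, to which NRF2 binds, was looked for as TGACNNNGC on both strands of the RefSeq promoters (GRCm38.p6, 250 bases before to 50 after the gene start). It was present in 3 of the 52 members with a promoter entry, Gsta3, Gstm5 and Gstm7, or 5.77%, and in 3781 of 27025 genes. No match in this window says only that these letters are not there.

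The other marker lists, given as counts of tested genes with a lower fitted mean in knockout, had these values. All 10 stroma markers and all 11 macrophage and leukocyte markers were lower, with medians of −0.33 and −0.40, and 8 of 10 tubular injury markers, with a median of −0.46. At an unadjusted p under 0.05 by edgeR were 5 of 10 stroma, 1 of 11 macrophage and 4 of 10 injury markers, all lower. Of all genes 8.31% fell under it, and the other marker lists held from 0 to 2 such genes. Wild-type library 0 was at 508 CPM for macrophage and 1531 CPM for injury markers. The other wild-type libraries, at 299.5 and 279.9 CPM and at 805.6 and 813.5 CPM, lay inside the knockout ranges. Podocyte and endothelial markers were lower for 7 of 10, with a median of −0.14, and collecting duct markers for 4 of 8, with a median of 0.019. Thick ascending limb and distal markers were lower for 2 of 8, with a median of 0.12. Proximal tubule S1 and S2 markers were lower for 2 of 10 and S3 markers for 1 of 12, with medians of 0.10 and 0.11. Androgen-responsive genes were lower for 4 of 12, and liver markers for 3 of 7. The 6 tested fat markers were all higher, with a median of 1.11 and a summed level of all 8 between 29.2 and 84.8 CPM. The adrenal markers summed to between 4.85 and 7.06 CPM, with Cyp11b1 and Dbh at 0 in every library. The part of tissue make-up in the values of the conjugation enzymes was not tested.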

How the data were processed

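Total RNA from frozen right kidneys was sequenced from stranded libraries after removal of ribosomal RNA, per the labels' protocols. Bowtie2 2.2.3, Cufflinks 2.2.1 with Cuffdiff, cutadapt 1.2.1, SAMtools 1.2, TopHat2 2.0.13 and mm10 are listed in the submitters' processing notes, which give no role or order. The choice of gene models, of a strand setting and of a rule for ambiguous alignments is not given in the sources used here. The authors deposited, for each gene and library, an FPKM and an estimated count (fragments), and, per the file headers, a Cuffdiff comparison with a log2 fold change, p-value and q-value per gene. Their table of scaled counts by group was left out.

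The library numbers 0, 1 and 2 fit no name among the samples, so each library is read as 1 unnamed mouse of its group. The labels call the samples biological replicates. Estimated counts were rounded, filtered with filterByExpr (14354 of 23396 genes kept), scaled with TMM and compared in edgeR 4.0.16 under R 4.3.3 (two-sided quasi-likelihood test without covariates), with Benjamini-Hochberg adjustment over all genes tested and a threshold of 0.05. The biological coefficient of variation was 10.1%. Alternatives used DESeq2 1.42.0 and limma 3.58.1 (voom, and log2 of FPKM plus a pseudocount), other scalings and filters, the Ugt1a genes summed, and each library left out. Depth was from 15261362 to 20631158 fragments a library, and floors of 3 fragments cover counting error only. Coding sequences and identities came from GENCODE models on GRCm38, and promoters from RefSeq. Summaries were made in Python 3.11.15.

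Members and gene lists were chosen with earlier results of these data known. Library values are given for the 4 members of highest mean FPKM and the 4 of smallest p in each family, and for lists the 2 genes of smallest p. Other genes were chosen after their values were seen. Values of a few list genes are not reported here.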

Additional observations from a re-analysis of the deposited data

How the results depend on the processing

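No member passed the adjusted threshold of 0.05 under any of the alternatives run (other scalings and filters, DESeq2, limma, robust dispersion, the Ugt1a genes summed, each library left out), nor at 0.10 by edgeR (DESeq2 gave 30 of the 39 an adjusted p); the smallest adjusted p of a named member was 0.155, for Sult1d1 by DESeq2. The number of members with an unadjusted p under 0.05, 3 by edgeR, was 5 by DESeq2 (5.59% of all genes) and 5 by limma-voom (8.07%), and 2 to 8 with a library left out. The number without overlap between groups was 4, and 6 to 13 with a library left out. With a library left out the median log2 fold change ranged from −0.00090 to 0.14 for glucuronosyltransferases (0.12 with wild-type library 0 dropped, 0.14 with knockout library 2 dropped) and from −0.11 (without knockout library 0) to 0.060 for sulfotransferases. The sulfotransferase median was 0.11 where genes needed 1 CPM in 3 libraries, which drops Sult2b1 and Sult5a1. The glutathione transferase median was between 0.032 (without knockout library 0; 0.050 without wild-type library 2) and 0.15 with a library left out. Of 269 values for the 17 named members under alternatives, 8 changed sign, all with a library left out: the ranges were −0.18 to 0.33 for Gsta2, −0.031 to 0.22 for Gstt2, −0.22 to 0.27 for Sult1a1, −0.014 to 0.41 for Sult1b1 and −0.13 to 0.025 for Sult1c2. The cause was not tested.

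No paired analysis was possible because the library numbers of the deposited table match no sample label. With 3 mice a group, the median half-width of a member's 95% confidence interval was 0.30 on the log2 scale. Members with few fragments, the Ugt1a genes and close copies are the least certain.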
